A study of Mus musculus with 4 samples.

Results

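The SOX factors of neural progenitors are transcription factors that share an HMG-box DNA-binding domain. They were taken here as 10 genes: Sox1, Sox2, Sox3, Sox4, Sox5, Sox6, Sox8, Sox9, Sox11 and Sox21. Every probe whose annotated symbol was 1 of these genes was used, which gave 29 of the 45259 probes on the array, and 10 of the 19057 genes with a probe of their own. RNA was measured on 4 Illumina bead arrays of mouse neural stem and progenitor cells (NSPC). The cells were taken from the neocortex of mice carrying a Cre/LoxP conditional transgene on the C57BL/6 background. They were grown as floating spheres in B-27 medium with the mitogens EGF and FGF2 (20 ng/ml each), and collected at day 5. The design compared 2 biological replicates overexpressing Bmi1, a polycomb protein that sustains the self-renewal of stem cells, with 2 replicates of transgenic control cells. The sources used here name neither the promoter of the transgene nor the Cre line, and give no age of the mice or number of mice per culture.

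The direction of every difference in these data is not settled, because the 2 deposited tables of the same 4 arrays name the groups in opposite ways. Each processed column of a control sample matched a scanner array headed as Bmi1 cells at a rank correlation of 1.00 across probes, and each processed column of a Bmi1 sample matched a control array in the same way. Groups are called by the scanner headers, as arrays labelled control and arrays labelled Bmi1. Each direction turns if the names of the processed table are the right ones. The single Bmi1 probe did not check the labels: its signals were 79.4 and 62.7 on the arrays labelled control and 53.3 and 77.7 on those labelled Bmi1, and these overlapped. The second array labelled Bmi1 was the dimmest, with 16495 probes detected against 17742 to 18242 on the others. Control array 1 stood apart by Xist, the RNA made from the silenced X chromosome: its 4 probes gave 114.7 to 970.5 there and at most 8.4 on the other arrays. It also gave -1.8 for the bright probe of the Y-linked gene Eif2s3y, against 204.6 to 239.6 elsewhere. By these 2 genes control array 1 read as female cells and the other arrays as male. Sex was thus not balanced between the groups, and its part in the differences was not tested. The summed signal of 10 progenitor markers, 8 of them tested, was 19271.8 to 25423.3 per array. Slc1a3 alone gave 15381.3 to 20098.2 of this, while Pax6, a defining gene of cortical progenitors, was detected on no array.

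SOX proteins fall into groups by the likeness of their HMG box. Sox1, Sox2 and Sox3 (SoxB1) keep neural progenitors undifferentiated, and Sox21 (SoxB2) is a repressor that counters them. Sox4 and Sox11 (SoxC) act later and switch on neuronal genes, Sox5 and Sox6 (SoxD) lack an activation domain of their own and modulate other SOX proteins, and Sox8 and Sox9 (SoxE, with Sox10) act in glial specification, where Sox9 also supports the stem cells.

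The upstream sequences of 4 members are shown. The brightest probes of Sox4 and Sox8 were lower in the arrays labelled Bmi1, with 95% intervals below 0. They are set beside Sox11 and Sox21, whose brightest probes had 95% intervals that included 0 (-0.17 to 0.95 and -0.38 to 0.55). Each line gives the 250 bases before the RefSeq transcription start in GRCm38.p6, read 5′ to 3′ along the gene's strand, with CpG dinucleotides in capitals. All 4 genes lie on the minus strand: the Sox4 window is chr13:28953700-28953949, that of Sox8 chr17:25570687-25570936, that of Sox11 chr12:27342719-27342968 and that of Sox21 chr14:118237031-118237280.
Sox4: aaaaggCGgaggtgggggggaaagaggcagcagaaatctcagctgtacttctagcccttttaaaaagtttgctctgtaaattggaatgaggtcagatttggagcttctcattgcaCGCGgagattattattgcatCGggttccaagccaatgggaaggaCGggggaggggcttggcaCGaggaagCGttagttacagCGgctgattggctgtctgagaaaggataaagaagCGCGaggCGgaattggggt
Sox8: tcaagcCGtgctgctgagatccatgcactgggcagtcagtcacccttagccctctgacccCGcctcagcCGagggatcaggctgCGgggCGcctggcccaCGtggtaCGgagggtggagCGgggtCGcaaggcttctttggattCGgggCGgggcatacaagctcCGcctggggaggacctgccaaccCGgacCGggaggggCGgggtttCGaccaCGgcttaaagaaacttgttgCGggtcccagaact
Sox11: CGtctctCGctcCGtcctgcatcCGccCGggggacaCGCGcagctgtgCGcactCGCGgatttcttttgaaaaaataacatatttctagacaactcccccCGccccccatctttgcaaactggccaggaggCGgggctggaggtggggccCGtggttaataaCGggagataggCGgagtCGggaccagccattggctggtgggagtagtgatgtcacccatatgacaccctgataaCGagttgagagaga
Sox21: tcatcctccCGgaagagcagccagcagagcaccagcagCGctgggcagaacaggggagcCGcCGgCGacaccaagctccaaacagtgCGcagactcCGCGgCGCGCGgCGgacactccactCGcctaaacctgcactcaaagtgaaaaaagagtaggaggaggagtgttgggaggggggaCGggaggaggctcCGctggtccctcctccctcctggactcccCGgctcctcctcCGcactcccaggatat
The Sox4 window held 11 CpG dinucleotides, that of Sox8 18, and those of Sox11 and Sox21 17 each, against a median of 6 over 32851 promoters of the same length. ACAAT, or ATTGT on the other strand, is a form of the core letters bound by SOX proteins, and other forms were not searched for. This form was in none of these 4 windows and in 27.7% of all promoters. All 4 windows were thus above the median in CpG and alike in lacking this form. RefSeq promoters were matched for 8 of the 10 members. The windows of Sox1 and Sox2 held 29 and 27 CpG and lacked this form, while that of Sox5 held 3 CpG and this form once. The Sox5 window, chr6:143947107-143947356 on the minus strand, lies inside the gene, which spans 143828425 to 144782287. It is thus not the sequence before the gene's 5′ end, which was not examined. The 6 Sox6 windows held 1 to 10 CpG, and 3 of them held this form, up to 3 times. Sox3 and Sox9 had no entry.

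Of the 29 SOX probes, 21 from 9 genes passed the detection filter (detection p under 0.05 on at least 2 arrays) and were tested. The other 8 were detected on no array. In each gene the tested probes are lettered from a, the brightest over the 4 arrays. Signals are background-subtracted intensities, and differences are log2 values of the arrays labelled Bmi1 minus those labelled control, from limma on normalized values. None of the 21 SOX probes had an adjusted p under 0.05, and neither did any of the 18237 probes tested on the array (0%); the smallest adjusted p was 0.14 in both sets. At an unadjusted p under 0.05 there were 5 SOX probes, or 23.8%, against 3795 probes, or 20.8%, of the array, so the SOX share was near the background. Lower in the arrays labelled Bmi1 were 2 of these (Sox4 a and Sox8 a; 10.1% of all probes), and 3 were higher (Sox5 a, Sox5 d and Sox6 b; 10.7% of all probes). The groups did not overlap for 8 of the 21 SOX probes, against 53.6% of all probes. The median difference was -0.012 over the SOX probes and -0.010 over all probes. The median gap between the 2 control arrays was 0.46 log2 over SOX probes against 0.20 over all, and that between the 2 arrays labelled Bmi1 was 0.38 against 0.27. The 2 sets of probes were not matched by signal, and the 21 SOX probes come from only 9 genes. With 2 arrays per group an exact permutation test of 1 probe cannot go below p = 0.333.

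**Figure D1:**
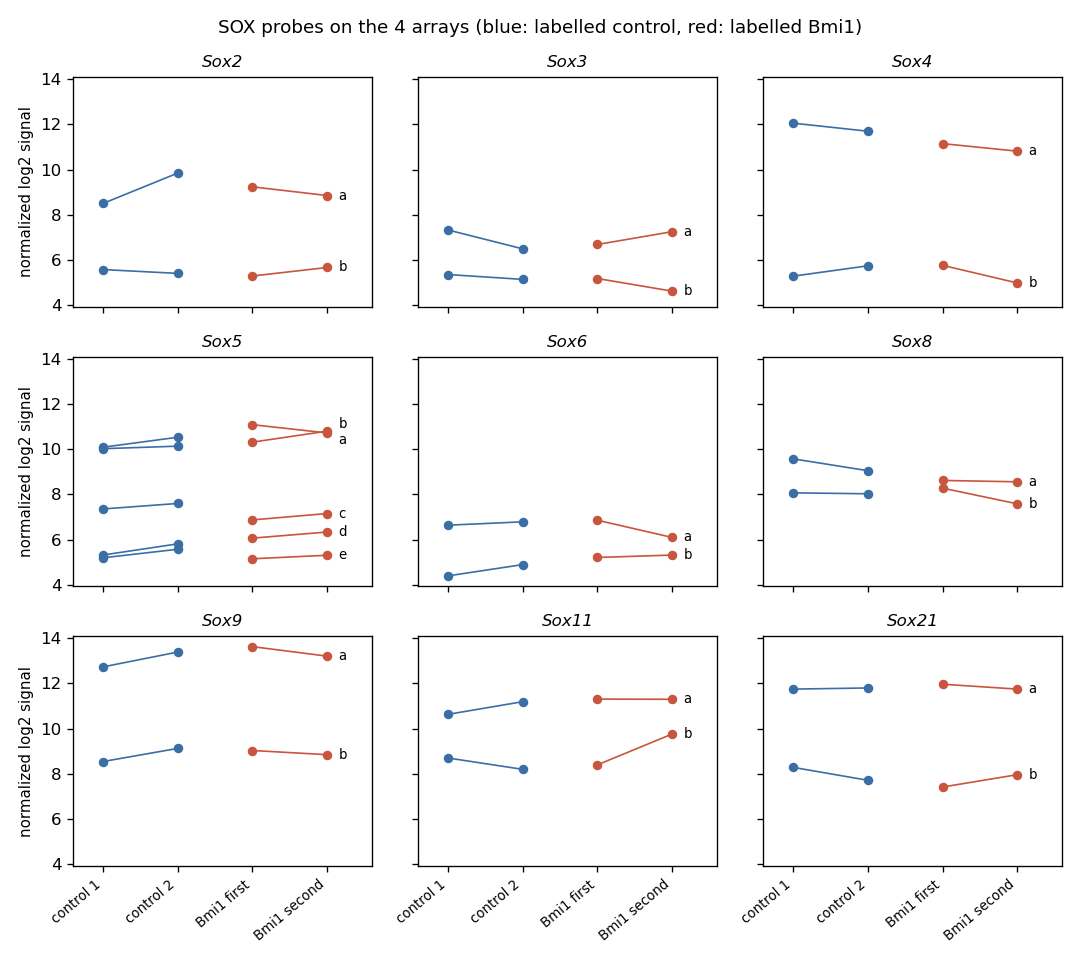
Normalized log2 signal (y axis) of the 21 tested SOX probes on each of the 4 arrays (x axis), 1 panel per gene, with arrays labelled control in blue and arrays labelled Bmi1 in red. Letters mark the probes of a gene from the brightest (a), and a line only joins the 2 arrays of a group. Sox4 a and Sox8 a lie higher on both control arrays, while Sox2 a differs more within the controls (8.51 and 9.85) than between the groups.

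The SoxB1 genes gave no difference larger than the spread between replicates. Sox1, an early marker of the neural plate, has a single probe, whose signals of 3.1 and 2.6 in the controls and 0.1 and -1.1 in the Bmi1-labelled arrays were below detection throughout. Sox2, the SoxB1 factor on which neural stem cell maintenance depends, was detected on all 4 arrays by both probes. Its bright probe gave 379.8 and 995.2 in the controls and 586.6 and 371.5 in the Bmi1-labelled arrays. The 2 controls thus spanned nearly the whole range, and the difference was -0.13 (SE 0.41, 95% interval -1.10 to 0.84, adjusted p = 0.890). The Sox2 estimate moved with single arrays, from -0.80 without control array 1 to 0.54 without control array 2. Its dim probe gave 34.8, 31.3, 22.6 and 27.2 in the same order, with a difference of -0.012 (SE 0.22). Although these dim signals were both higher in the controls before normalization, the normalized values overlapped.

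Sox3, the X-linked member of the SoxB1 group, gave 160.2 and 87.9 in the controls and 85.3 and 107 in the Bmi1-labelled arrays with its bright probe. The highest value was that of control array 1, the array with the Xist signal; the part of this in the result was not tested. The difference was 0.060 (SE 0.33, adjusted p = 0.937), and without control array 1 it was 0.48. The dim probe gave 27.3, 22.7, 19.7 and 7.7, the last of which was not detected, and differed by -0.35 (SE 0.25, adjusted p = 0.460), from -0.63 without the first Bmi1-labelled array to -0.069 without the second.

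Sox21, which represses genes that SoxB1 proteins activate, had the smallest standard error of the tested SOX probes in its bright probe (0.20). The signals were 3603.2 and 3846 in the controls and 3989.8 and 3017.5 in the Bmi1-labelled arrays. The difference was 0.083 with a 95% interval of -0.38 to 0.55, so the interval does not reach a 2-fold change in either direction. The other tested probe gave 329.2, 225.2, 150.2 and 186.7. Both controls were brighter before normalization, yet the normalized values overlapped and differed by -0.31 (SE 0.28, adjusted p = 0.568). Leaving out 1 array moved this from -0.026 without control array 1 to -0.60 without control array 2.

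The SoxC pair had estimates of opposite sign. Sox4 gave the lowest unadjusted p of the SOX probes: probe a (ILMN_2727116) had signals of 4369.9 and 3621.3 in the controls and 2227.1 and 1580.2 in the Bmi1-labelled arrays. Both controls were above both other arrays. Normalized means were 11.88 ± 0.25 (SD, n = 2) in the arrays labelled control and 10.99 ± 0.24 (SD, n = 2) in those labelled Bmi1, a 1.86-fold difference. The log2 difference was -0.89 (SE 0.23, 95% interval -1.43 to -0.36), with unadjusted p = 0.005445 and adjusted p = 0.14. Leaving out 1 array in turn gave -1.07 to -0.72, the smallest in size without control array 1. The unadjusted p was under 0.05 in 15 of 15 alternative settings, with the same arrays higher in each. The dim Sox4 probe, annotated to the same gene, gave 25, 44.6, 37.3 and 13.4, with overlapping groups and a difference of -0.14 (SE 0.30). Its signals lay far below those of probe a, and closest to the detection limit in the second Bmi1-labelled array.

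Sox11, the close relative of Sox4 with largely overlapping roles in neuronal maturation, was not lower by either tested probe. Its probe a gave 1662.8 and 2523.4 in the controls and 2466.4 and 2230.4 in the Bmi1-labelled arrays. Control array 1 was the lowest, and the other 3 arrays were alike. The difference was 0.39 (SE 0.24, adjusted p = 0.396), and it was 0.11 without control array 1. Probe b gave 440, 316.9, 317.5 and 725.4, so that its difference of 0.63 (SE 0.43) rested on the second array labelled Bmi1 and was -0.050 without it. Whether the Sox4 and Sox11 differences are unequal was not tested. The 2 further Sox11 probes were detected on no array.

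The SoxD genes showed probes of 1 gene that disagreed. Sox5, which in the cortex controls the timed generation of deep-layer neurons, has 6 probes, of which 5 were tested. Probe a gave 1144.2 and 1588.3 in the controls and 2126.3 and 1472.5 in the Bmi1-labelled arrays. These signals overlapped before normalization and not after it, and the difference was 0.59 (SE 0.24, unadjusted p = 0.0428, adjusted p = 0.226), or 0.37 without control array 1. Probe b gave 1093.2, 1210.2, 1254.3 and 1550.6, with a difference of 0.48 (SE 0.23, unadjusted p = 0.0760), or 0.23 without the second Bmi1-labelled array. Both bright Sox5 probes were therefore higher in the arrays labelled Bmi1 after normalization. Probe c was lower in the same arrays, with 164.2 and 205.6 against 99 and 97.7 and a difference of -0.47 (SE 0.21, unadjusted p = 0.0644). Probe d gave 26, 47.4, 49.4 and 49.8 and a difference of 0.64 (SE 0.24, unadjusted p = 0.0322), or 0.39 without control array 1 (unadjusted p = 0.249). The unadjusted p was under 0.05 in 11 of 15 alternatives for probe a and in 9 of 14 for probe d. Probe e gave 22.1, 37.5, 18.9 and 18.8 and a difference of -0.15 (SE 0.22). In all, 3 Sox5 probes were higher and 2 lower, and whether they read different isoforms was not tested. Probes b, c and e are annotated to RefSeq transcripts, probe d to another sequence record and probe a to none. Within the RefSeq probes alone, b and c differed in sign and their groups did not overlap.

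Sox6, the partner of Sox5 in many tissues, has 5 probes. The 3 that are annotated to RefSeq transcripts were detected on no array, and both that were tested are annotated to other sequence records. Probe a gave 92.6 and 111.1 in the controls and 97.5 and 40.4 in the Bmi1-labelled arrays, a difference of -0.24 (SE 0.28). The second array labelled Bmi1 was the only low one, and without it the difference was 0.14. Probe b gave 3.6, 15.5, 20.4 and 19, near the detection limit and undetected on control array 1. Its difference of 0.62 (SE 0.23, unadjusted p = 0.0313, adjusted p = 0.203) fell to 0.37 without control array 1 and to 0.29 with an offset of 50 before the log (unadjusted p = 0.0739). Its unadjusted p was under 0.05 in 5 of 13 alternatives. Over all members, 8 of the 24 probes annotated to RefSeq transcripts were detected on no array, and none of the 4 probes annotated to other records.

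Of the SoxE pair, Sox8 was lower in the arrays labelled Bmi1 by its bright probe, while the groups overlapped for Sox9. Sox8, which acts beside Sox10 in oligodendrocytes, gave 801.3 and 572.1 in the controls and 370.6 and 292.2 in the Bmi1-labelled arrays with probe a (ILMN_2784686). The groups did not overlap. Normalized means were 9.31 ± 0.37 (SD, n = 2) and 8.59 ± 0.043 (SD, n = 2), a 1.65-fold difference. The log2 difference was -0.72 (SE 0.24, 95% interval -1.28 to -0.17, unadjusted p = 0.0170, adjusted p = 0.167), and the unadjusted p was under 0.05 in 13 of 15 alternative settings. It was -0.46 without control array 1, the highest array (unadjusted p = 0.166), and -0.69 without the second Bmi1-labelled array (unadjusted p = 0.0522). Probe b of Sox8, annotated to another sequence record, gave 278.3, 282.9, 289.1 and 139.4. Only the second array labelled Bmi1 was low, and the difference was -0.12 (SE 0.26).

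Sox9, which drives the switch from neuron to glia production and is kept in astrocytes, gave 7010.9 and 11498.3 in the controls and 12645.2 and 8348.5 in the Bmi1-labelled arrays. The arrays of each group spread as widely as the groups, with a difference of 0.36 (SE 0.28, 95% interval -0.30 to 1.01, adjusted p = 0.504). Its probe b gave 391.2, 604.8, 504.9 and 369.9 and a difference of 0.10 (SE 0.25). After normalization both Sox9 probes were lowest on control array 1, and without that array the differences were 0.029 and -0.19.

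**Figure D2:**
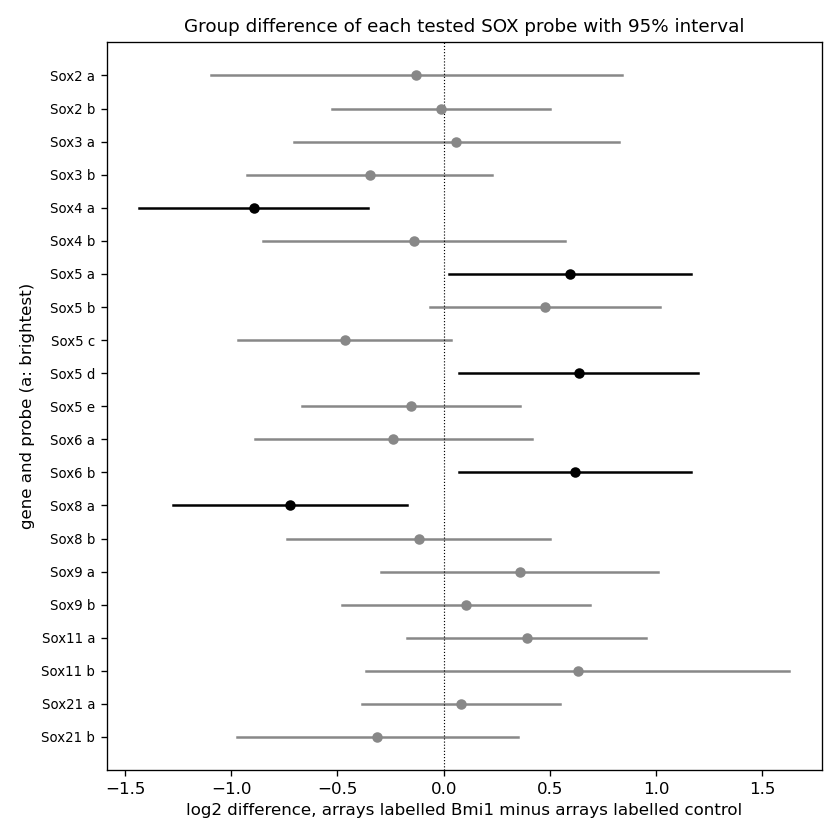
Log2 difference (x axis, arrays labelled Bmi1 minus arrays labelled control) of each tested SOX probe (y axis), with its 95% interval from the fit. Black marks the 5 probes with an unadjusted p under 0.05; the intervals of Sox4 a (-1.43 to -0.36) and Sox8 a (-1.28 to -0.17) lie below 0, those of Sox5 a, Sox5 d and Sox6 b above it.

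The scaling of the arrays moved the split between higher and lower SOX probes. With quantile normalization 51.6% of the probes under an unadjusted p of 0.05 were higher in the arrays labelled Bmi1. Scaling each array by the median of the probes detected on all arrays shifted the median of all probes to 0.14 and made that share 69.6%, with 4 SOX probes higher and 2 lower. Scaling by the median over all probes shifted it to -0.21 and made the share 14.4%, with no SOX probe higher and 4 lower. Sox4 a and Sox8 a were lower under all 3 scalings, from -1.08 to -0.72 for Sox4 a and from -1.01 to -0.65 for Sox8 a, so that each stayed below the median of all probes. Sox5 a stayed above it, from 0.39 to 0.74.

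**Figure D3:**
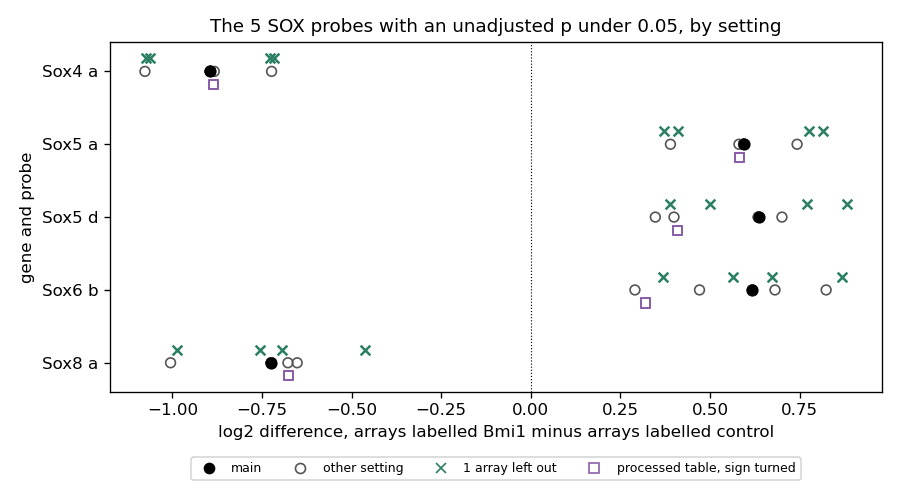
Log2 difference (x axis) of the 5 SOX probes with an unadjusted p under 0.05 (y axis) in the fit as reported, under the other settings, with 1 array left out, and in the processed table with its sign turned so that the same arrays are compared. No point crosses 0; Sox4 a ranges from -1.08 to -0.72 over the scanner table's settings, and Sox8 a reaches -0.46 without control array 1.

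Of 10 other SOX genes on the array (Sox7, Sox10, Sox12, Sox13, Sox14, Sox15, Sox17, Sox18, Sox30 and Sry), 7 did not pass the detection filter. The brightest probes of the other 3 had estimates below 0, as had 9296 of all 18237 probes, and 1 of them, Sox12, had an unadjusted p under 0.05. Sox12, the third SoxC gene, gave 972.5 and 954.4 in the controls and 570.8 and 400.7 in the Bmi1-labelled arrays with its brightest probe. The groups did not overlap, and the difference was -0.74 (SE 0.20, unadjusted p = 0.007414, adjusted p = 0.1435), with an unadjusted p under 0.05 in 15 of 15 alternatives. Its 2 dim tested probes had the opposite sign, at 0.42 (SE 0.24, groups not overlapping after normalization) and 0.11 (SE 0.24). Sox10, the SoxE factor that oligodendrocytes require, gave 1763.8 and 1125.1 against 1565.4 and 591.9, which overlapped, with a difference of -0.31 (SE 0.40, unadjusted p = 0.462). Sox7, a gene of vessels, was close to the detection limit at 13.5, 13, 10.8 and 4.1, and its estimate was -0.22 (SE 0.21, unadjusted p = 0.321).

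Genes that work with SOX proteins or are known as their targets were described by counts, with each gene taken by its brightest probe. None passed the adjusted threshold. Of 10 partners, 8 had a probe and 7 were tested, with 4 above and 3 below the controls (median 0.059, against -0.010 over all probes). Pou3f1, a POU factor of the class that binds beside Sox2, gave 68.2 and 103.3 in the controls and 168.8 and 437.7 in the Bmi1-labelled arrays. Its difference was 1.85 (SE 0.45, unadjusted p = 0.004249, adjusted p = 0.14), and both arrays labelled Bmi1 were above both controls. Ctnnb1, the beta-catenin with which several SOX proteins interact, gave 1366.1 and 1532.5 against 1804.3 and 2290, a difference of 0.68 (SE 0.23, unadjusted p = 0.0212). Without the second Bmi1-labelled array it was 0.43, while that of Pou3f1 was 1.09. The other tested Ctnnb1 probes gave 0.036 (SE 0.24) with overlapping groups and 0.47 (SE 0.23) without overlap. Pou3f2 and Chd7 had no probe under 1 symbol.

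Of 12 SoxB1 targets, 8 were tested, 5 with estimates above 0 and 3 below. Their median was 0.24, or 0.066 without the second Bmi1-labelled array and -0.10 when arrays were scaled by the median over all probes. Notch1, the receptor that keeps progenitors from differentiating, gave 172.9 and 211.6 in the controls and 323.4 and 313.4 in the Bmi1-labelled arrays. Its difference of 1.00 (SE 0.21, unadjusted p = 0.001624, adjusted p = 0.14) exceeded the gap within either group. Nes, the intermediate filament of progenitors and a Sox2 target, gave 0.49 (SE 0.22, unadjusted p = 0.0593). The other tested Nes probe gave 0.23 (SE 0.30) with overlapping groups. Among those below 0, Gli2, an effector of hedgehog signalling, gave -0.42 (SE 0.20, unadjusted p = 0.0784) without overlap, with a second probe at -0.54. Hes5, a Notch effector, gave -0.67 (SE 0.45) with overlapping groups. Cdh2, Jag1, Mycn and Shh were not detected.

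Of 4 SoxC targets 3 were tested, and their brightest probes had a median of -0.35, which was -0.056 over all kept probes and -0.088 without control array 2. Dcx, a microtubule protein of young neurons, gave 262.4 and 155.9 against 127.6 and 53.1, a difference of -0.79 (SE 0.35, unadjusted p = 0.0537) that was -0.40 without the second Bmi1-labelled array. The other tested Dcx probe gave -0.94 (SE 0.30, unadjusted p = 0.0157) without overlap. Tead2 gave -0.35 (SE 0.28) with overlapping groups. Map2, a microtubule protein of neuronal dendrites, overlapped at -0.12 (SE 0.23), and its 4 other tested probes ran from 0.0047 to 0.19. Tubb3, the neuronal tubulin that Sox4 and Sox11 activate, was not detected. Of 14 SoxE targets, 9 were tested, 4 higher and 5 lower, with a median of -0.012. Mbp, a myelin protein, gave 2872.7 and 515.7 in the controls and 107.2 and 26.6 in the Bmi1-labelled arrays, a difference of -3.84 (SE 0.77, unadjusted p = 0.001396). The other tested Mbp probes gave -1.23 (SE 0.40) without overlap and -0.24 (SE 0.30) with overlapping groups. Gfap, the astrocyte filament, gave 874.7 and 1618.8 against 328.1 and 49.2 (-2.74, SE 0.63), and Mag, another myelin protein, gave 206.6 and 42.4 against 11.7 and 4.3. The last Mag signal was not detected, so the Mag estimate of -2.05 (SE 0.56) depends on the offset and was -1.27 with an offset of 50. Zcchc24 was higher by its brightest probe, with 3336.9 and 3722.3 against 4879.4 and 4682.8 (0.61, SE 0.19, unadjusted p = 0.0155). Its other tested probe, detected on 2 arrays, had the opposite sign at -0.24 (SE 0.62) with overlapping groups.

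Marker lists of several cell types are given beside Sox4 and Sox8. No marker passed the adjusted threshold, and of all 18237 probes 9296 had estimates below 0 and 8941 above. At an unadjusted p under 0.05 in the limma fit, 10.1% of all probes were lower and 10.7% higher in the arrays labelled Bmi1. Sums below take negative signals as 0. The summed signal of the astrocyte list, 7 genes of which 6 were tested, with 6 estimates below 0 and 4 of them at an unadjusted p under 0.05, was 13518.3 and 13975.3 in the controls and 8594.5 and 7477.3 in the Bmi1-labelled arrays. Of 14 oligodendrocyte markers 11 were tested, 8 had estimates below 0 and 6 of these an unadjusted p under 0.05, and the sum was 41547.3, 25887.6, 24765.6 and 18756.9, with Myrf and Mog undetected. The dividing-cell markers summed to 1753.4, 3358.7, 3513.3 and 5027.1, with 6 of 6 estimates above 0 and 3 of them at an unadjusted p under 0.05. Neuronal markers summed to 3800.5, 3624.7, 3163.6 and 2078.3, with Tubb3, Stmn2 and Snap25 undetected. Of 7 tested neuronal genes, however, 4 had estimates above 0 and 3 below, with a median of 0.090; the lower sum came with Elavl3 (-1.32) and Map2. Sox4 a, Sox8 a and the sums of the oligodendrocyte and neuronal lists were all highest on control array 1. All were lowest on the second array labelled Bmi1, which also had the fewest detected probes. The median of the tested neuronal genes, each centred on its mean over the 4 arrays, was highest on the first array labelled Bmi1 (0.15). The astrocyte sum was highest on control array 2. Sox9 a did not follow the astrocyte sum: its highest array was the first labelled Bmi1. In bulk cultures fewer cells of a type and less RNA per cell cannot be told apart, and the part of these markers in the SOX results was not tested.

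**Figure D4:**
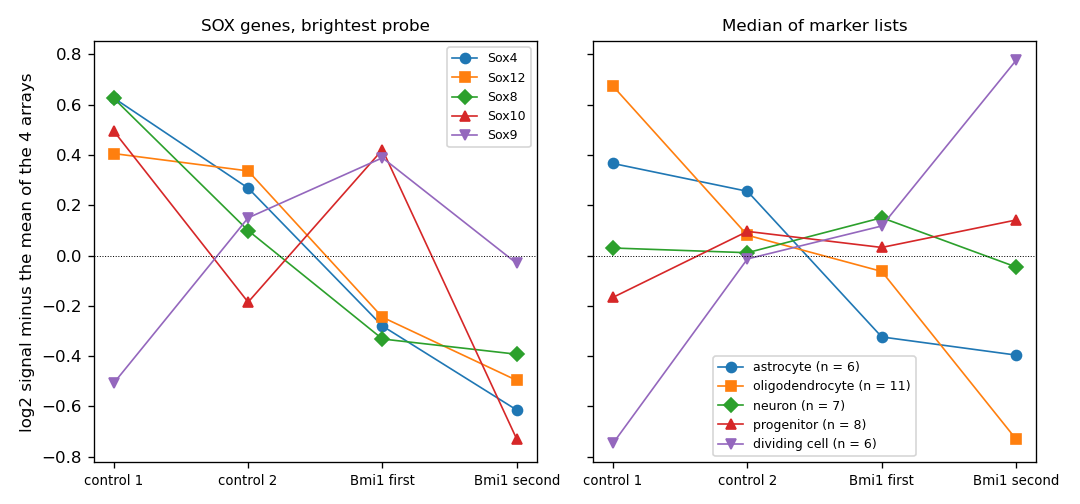
Left, normalized log2 signal minus the mean of the 4 arrays (y axis) on each array (x axis) for the brightest probe of 5 SOX genes; right, the median of the same quantity over the tested genes of 5 marker lists, with the number of genes in the key. Lines only join the points of a gene or list. Sox4, Sox8 and Sox12 are above 0 on both control arrays, while Sox9 and Sox10 are not. The astrocyte (0.37 and 0.26) and oligodendrocyte (0.67 and 0.081) medians are also above 0 on both. The neuronal median is slightly above 0 on both (0.030 and 0.011), but it is highest on the first array labelled Bmi1 (0.15). The medians of the progenitor and dividing-cell lists are not above 0 on both control arrays.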

How the data were processed

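The members, gene lists and alternatives were chosen with earlier results of these data known. Per the file headers, the scanner table pairs each array's signal intensity with a detection column; the deposited intensities were already background-subtracted (31.2 to 33.9% of an array at or below 0). The deposited detection p-value column rises with the signal and was read as 1 minus p. Values on a log2-like scale with shared quantiles make up the authors' deposited processed table, made with lumi per the submitters' processing notes, its version and transform not given in the sources used here. Of 45281 rows, 22 without a probe identifier were left out. Both remaining scanner arrays were headed 1DT where the labels give 1DT and 2DT, so they are called first and second by place.

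Signals were corrected by normexp from the detection p-values, offset by 16, log2-transformed and quantile-normalized as in neqc of limma 3.58.1 (R 4.3.3). Each of 18237 probes was fitted with lmFit and eBayes on group (total degrees of freedom 7.31), with Benjamini-Hochberg adjustment at 0.05. The code was tested on simulated data. All 10 members are named with each probe, and Bmi1, Xist and Eif2s3y as checks. List genes are named at an unadjusted p under 0.05 or otherwise as the 2 of smallest p. Nes, Gli2, Hes5, Map2, Elavl3, Slc1a3, Sox7 and Sox10 were chosen outside this rule after their values were seen. Promoters are RefSeq's. The comparison of SOX proteins was not run. No batch could be tested without slide or scan dates, and the number of arrays limits precision. Alternatives changed scaling, background, offset, filter, probe choice, variance prior, table, block and arrays left out.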

Additional observations from a re-analysis of the deposited data

How the results depend on the processing

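Sox4 a and Sox12 kept an unadjusted p under 0.05 and the same arrays higher in 15 of 15 alternatives. No SOX probe passed the adjusted threshold in any of the 15. The count of SOX probes at an unadjusted p under 0.05 was 5 as reported and 3 with 1 probe per gene, where only 9 SOX probes were tested. With 1 array left out it ranged from 2 to 7, and that over all probes from 1640 to 4912; the lowest came without control array 1. Over all probes, 0 to 63 then passed the adjusted threshold, the most without the first array labelled Bmi1, and the cause was not tested. With the groups as the processed table names them, every difference turned by construction: Sox2 a 0.13, Sox2 b 0.0032, Sox3 a -0.045, Sox3 b 0.17, Sox4 a 0.89, Sox4 b 0.070, Sox5 a -0.58, Sox5 b -0.46, Sox5 c 0.38, Sox5 d -0.41, Sox5 e 0.088, Sox6 a 0.17, Sox6 b -0.32, Sox8 a 0.68, Sox8 b 0.10, Sox9 a -0.36, Sox9 b -0.096, Sox11 a -0.39, Sox11 b -0.59, Sox21 a -0.088, Sox21 b 0.27, Sox12 0.71, Pou3f1 -1.55, Ctnnb1 -0.68, Notch1 -0.89, Gfap 2.47, Zcchc24 -0.60, Mbp 3.38, Mag 1.32, Dcx 0.65, Tead2 0.32, Bmi1 -0.18. The replicate block and the crossed pairs gave the same differences. Same-numbered processed columns deviated in opposite directions (r = -0.202). With 2 arrays per group this rests on 1 contrast in each group, so it cannot tell whether same-numbered cultures were paired. The table had 3809 probes and 5 SOX probes at an unadjusted p under 0.05, against 3394 and 5 with the replicate block; a block of crossed pairs, chosen after seeing the data, gave 4367 and 6, and 0 adjusted calls in each. Other directions turned as follows, and the cause was not tested. Median scaling gave Sox2 b 0.090, Sox4 b 0.021 and a SoxE target median of 0.21 in place of -0.012. Median scaling over all probes, chosen after seeing the data, gave Sox3 a -0.28, Sox9 b -0.16, Sox21 a -0.10, Bmi1 -0.10, and medians of -0.24 for the partners and -0.10 for the SoxB1 targets. Without the second array labelled Bmi1 the medians of the partners and SoxE targets turned to -0.045 and 0.092. Leaving out 1 array in turn gave ranges of Sox2 b -0.20 to 0.18; Sox9 b -0.19 to 0.40; Sox2 a -0.80 to 0.54; Sox3 a -0.36 to 0.48; Sox4 b -0.53 to 0.25; Sox5 e -0.34 to 0.034; Tead2 -0.73 to 0.035; Sox21 a -0.025 to 0.19; Sox6 a -0.62 to 0.14; Sox8 b -0.47 to 0.23; Sox11 b -0.050 to 1.31; Bmi1 -0.13 to 0.61. Leaving out 1 array moved several list genes by over 1.5 times: without the second array labelled Bmi1 Pou3f1 was 1.09, Gfap -1.68 and Ctnnb1 0.43, and without control array 1 Mag was -1.06 (adjusted p 0.513). Without the first array labelled Bmi1, Pou3f1 and Gfap reached an adjusted p of 0.0479 each, and without control array 2 Mbp reached 0.00197 and Mag 0.00721, against 0.14 as reported for Pou3f1, Gfap and Mbp and 0.1435 for Mag. Without a filter 5583 probes passed the unadjusted threshold. The planned comparison of SOX protein sequences was not run. Of the tested SOX probes, Sox3 b and Sox6 b were each undetected on 1 array.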

Other observations

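No endothelial, mesenchymal or red cell marker passed the detection filter. The summed signals stayed at 8.4 to 23.4 for the 5 endothelial genes, at 8.5 to 13.9 for the 6 mesenchymal genes and at 0 to 5 for the 3 red cell genes with a probe. Of 7 microglial genes 2 were tested, with sums of 12.2 to 30.7. The 2 ependymal genes summed to 29.4 to 46.6, with Dynlrb2 detected on all 4 arrays at 23.6 to 39.4, and the 3 neural crest genes, where SOX proteins also act, to 10.5 to 20.9. Of 6 intermediate progenitor genes 1 passed the filter, the Notch ligand Dll1 at 108.7 to 162.8, and the list summed to 119.3 to 201.8.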
